A study of Rattus norvegicus with 30 samples.

Results

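Chlorpromazine at 20 µM was compared with vehicle after 24 h in cultured rat hepatocytes, using 10 of the 30 arrays of a study of dose and time. The 20 µM group is made of the 5 arrays whose titles give 24 h and 20 µM chlorpromazine hydrochloride. The vehicle group is made of the 5 arrays titled with 1% dimethyl sulfoxide whose time entry is 24 h, and every probe set on the arrays entered the comparison. The cells were thawed primary hepatocytes of male Sprague Dawley rats, plated on collagen under a Matrigel overlay and dosed on day 3 of culture. Each array holds the RNA of 1 well, and the labels call the 5 wells of a group independent cultures without naming separate animals, so p-values measure the spread between cultures. Dosing solutions of the drug were made in dimethyl sulfoxide, but the titles of the treated arrays give no content of that solvent. Array numbers in the titles follow the same order of groups in every run of 6, so position within a run and dose cannot be told apart. The other 20 arrays are 5 at 0.8 µM and 24 h, and 5 each at 20 µM, 0.8 µM and vehicle after 48 h. Vehicle replicate 2 is counted at 24 h after its time entry, although its title names 2 h.

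Chlorpromazine is a phenothiazine antipsychotic that can cause cholestatic liver injury, in which bile flow from hepatocytes fails. It is a cationic amphiphilic drug: it crosses membranes uncharged, becomes charged in acidic lysosomes and collects there with phospholipid. Hepatocytes turn cholesterol into bile acids, oxidise fatty acids, break down amino acids, make glucose and urea, clear drugs through P450 enzymes and secrete most plasma proteins. Hepatocytes in culture are known to lose transcripts of these tasks over days, and the vehicle wells here were as old as the treated wells.

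The deposited values are linear signals per probe set, and a log2 difference is the mean log2 signal of the 20 µM arrays minus that of the vehicle arrays. Each difference is given ± SE from limma over all 30 arrays, with 5 arrays per group, and a gene rose or fell where its Benjamini-Hochberg adjusted p was under 0.05. Vehicle replicate 2 had a mean correlation of 0.946 with its own group, 0.948 with the 0.8 µM arrays and 0.945 with the vehicle arrays of 48 h, values too close to settle its time. A gene is called dim where its lower group mean lay below a signal of 271. Summed signals of hepatocyte markers were 507208 to 728967 at 20 µM and 592363 to 754244 in vehicle, and the 9 measured markers included none that was dim. Alb, the gene of albumin, had signals of 82708, 78443, 102445, 114689 and 131977 at 20 µM, against 99004, 90056, 111787, 135209 and 101998 in vehicle, with a difference of -0.09 ± 0.14 and an adjusted p of 0.794. The defining markers of the labelled cell type were thus bright in both groups. Kupffer cell markers summed to 12846 to 14010 at 20 µM and 15205 to 16384 in vehicle, and of 10 measured the macrophage lysozyme gene Lyz2 fell (-0.40 ± 0.07) while Adgre1 and Ptprc were dim. The hepatocyte marker Asgr1, a receptor for desialylated glycoproteins, fell (-0.38 ± 0.05). Stellate cell markers summed to 4119 to 5117 at 20 µM and 4954 to 5702 in vehicle, with 3 of 10 dim and the pericyte gene Rgs5 lower. Endothelial markers summed to 1996 to 2725 at 20 µM and 2832 to 3283 in vehicle, with Stab2, Pecam1, Tek and Vwf among the dim ones and 0 of 7 past the test. Cholangiocyte markers summed to 9506 to 11078 at 20 µM and 9309 to 10473 in vehicle; 4 of 5 were dim, and of these the keratin gene Krt19 fell (-1.28 ± 0.35), with an adjusted p of 0.0550 without 20 µM replicate 2. Lymphocyte markers summed to 2179 to 2466 at 20 µM and 1590 to 2329 in vehicle, with Klrb1a (0.46 ± 0.10) and the dim Nkg7 (2.26 ± 0.56) higher. Sums of Kupffer and endothelial markers did not overlap between the groups. A sum follows its brightest members. Lyz2, the only Kupffer marker called, was bright, with a mean log2 signal of 12.65 at 20 µM and 13.05 in vehicle. The part of these markers in the results below was not tested. In bulk RNA, fewer cells of a type and less RNA per cell cannot be told apart.

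Of 14217 genes tested, 2400 differed between 20 µM and vehicle (16.9%): 1315 rose (9.25%) and 1085 fell (7.63%). With the arrays centred on their medians 1544 rose and 695 fell, which moved the share of rises among the calls to 69.0% from 54.8%, and the median difference of all genes was 0.05 in place of -0.003. The typical change was small, with a median size of 1.29-fold among called genes, and a change of at least 2-fold was reached by 39 genes that rose and 87 that fell. Of these larger changes, 14 rises and 39 falls were in genes that were not dim. The 5 and 5 arrays did not overlap for 13.9% of all genes, 7.58% higher and 6.3% lower. A further 10216 probe sets have several gene names or none. Of these 247 were higher and 327 lower (5.62% in all), and they have no place in what follows. Among 812 called genes with several probe sets, 215 had another probe set called in the same direction and 15 had one called in the opposite direction.

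**Figure D1:**
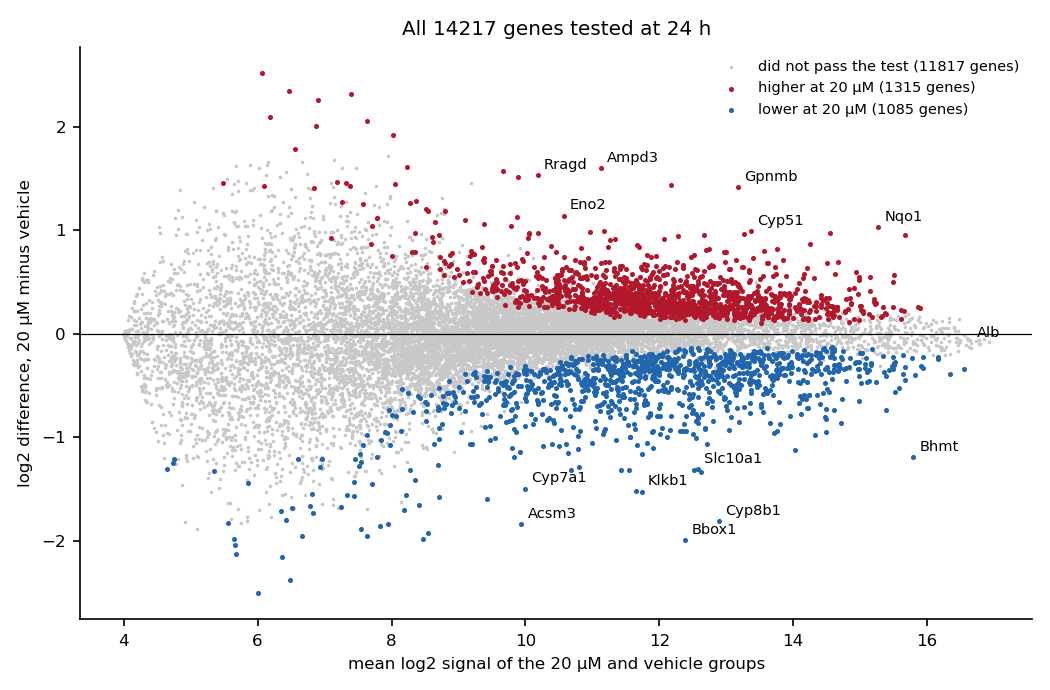
Each point is 1 of 14217 genes, with its mean log2 signal over both groups on the horizontal axis and its log2 difference, 20 µM minus vehicle, on the vertical axis. Red points (1315) rose and blue points (1085) fell. The labelled genes were chosen by hand, and among them Alb lies at -0.09 at the bright end.

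The largest rises among genes that were not dim were of Ampd3, Tsx, Rragd, Prcp, Il1r2, Gpnmb, Rab40c, Eno2, Zdhhc18, Niban1, Map1b and Nqo1. Ampd3, an AMP deaminase of purine metabolism, had signals of 3532, 3788, 4322, 3769 and 4081 at 20 µM, against 1386, 1195, 1237, 1194 and 1397 in vehicle. Every treated well was more than 2 times as bright as the brightest vehicle well, a 3.04-fold difference. Rragd, a Rag GTPase that signals amino acid supply at the lysosome, had 1783, 1945, 1966, 2145 and 2081 at 20 µM, against 611, 791, 838, 574 and 636 in vehicle (1.54 ± 0.12, adjusted p = 7.21e-11). Gpnmb, a glycoprotein of lysosomes and melanosomes, had 15332, 13511, 15193, 16102 and 15433 at 20 µM, against 5390.2, 5899, 6517, 5518 and 4993 in vehicle (1.42 ± 0.10, adjusted p = 2.55e-11). The groups lay far apart for both genes, with the lowest treated well more than 2 times as bright as the highest vehicle well. Il1r2, the decoy receptor of interleukin-1, rose 2.71-fold (1.44 ± 0.13). Eno2, the neuronal enolase, differed by 1.14 ± 0.17 and the palmitoyltransferase gene Zdhhc18 by 1.13 ± 0.22. Tsx differed by 1.57 ± 0.18 and Map1b, which codes for a microtubule-associated protein, by 1.04 ± 0.22. For 3 of the 12 genes leaving out 1 vehicle array ended the call or moved the value by over 1.5 times. Prcp, a lysosomal carboxypeptidase, differed by 1.52 ± 0.43 with signals of 1153, 1314, 2175, 1940.3 and 1699 at 20 µM, against 1121, 206, 558, 645 and 679.7 in vehicle, and without vehicle replicate 2 the difference was 1.15 with an adjusted p of 0.0797. Rab40c differed by 1.19 ± 0.34, and without vehicle replicate 4 by 0.90 with an adjusted p of 0.0816. Niban1 differed by 1.08 ± 0.26, and by 0.70 without vehicle replicate 1, which kept the call.

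The 12 largest falls by the same rule were of enzymes and secreted proteins of the hepatocyte. Bbox1, the last enzyme of carnitine synthesis, had signals of 2972, 3468, 2463, 2233 and 2469.9 at 20 µM, against 10321, 9464, 9721, 9684 and 15365 in vehicle. All treated wells lay far below all vehicle wells, with vehicle replicate 5 the brightest, a 3.99-fold fall (-1.996 ± 0.14, adjusted p = 2.97e-11). Acsm3, a medium-chain acyl-CoA synthetase, had 538, 517, 401, 519 and 655 at 20 µM, against 1572, 2025, 1544, 1738 and 2586 in vehicle, a fall of 3.57-fold. AKR1C3l1 (-1.60 ± 0.19) and Akr1c1 (-1.32 ± 0.15) belong to the aldo-keto reductases, which reduce steroids and other carbonyl compounds. Klkb1, plasma prekallikrein of the contact pathway, had 1686, 2023, 2560.2, 1742 and 2180.3 at 20 µM, against 4153, 7275, 6081, 6169 and 5777 in vehicle (-1.52 ± 0.13). Non-overlap of the groups was a condition of the rule for all 12. Cyp4a1, a fatty acid omega-hydroxylase, fell by 2.86-fold and Cyp4f4, of a related P450 family, by 2.49-fold. Cyp2d3, a drug-metabolising P450, had 3721, 4155, 3968, 3622 and 4410.0 at 20 µM, against 10919, 10012, 8359.8, 10779 and 10079 in vehicle (-1.33 ± 0.08, adjusted p = 1.29e-12). Gstm7, a glutathione transferase, fell by 2.49-fold (-1.31 ± 0.15). Ccn2, connective tissue growth factor, had 3467, 3480.1, 3917, 4030.1 and 3819 at 20 µM, against 9829.9, 9307, 9460.0, 8231 and 9725 in vehicle, with no well of either group near the other (-1.31 ± 0.07, adjusted p = 1.09e-13). Cyp8b1 and Cyp7a1, also among the 12, are described with the bile acid genes.

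**Figure D2:**
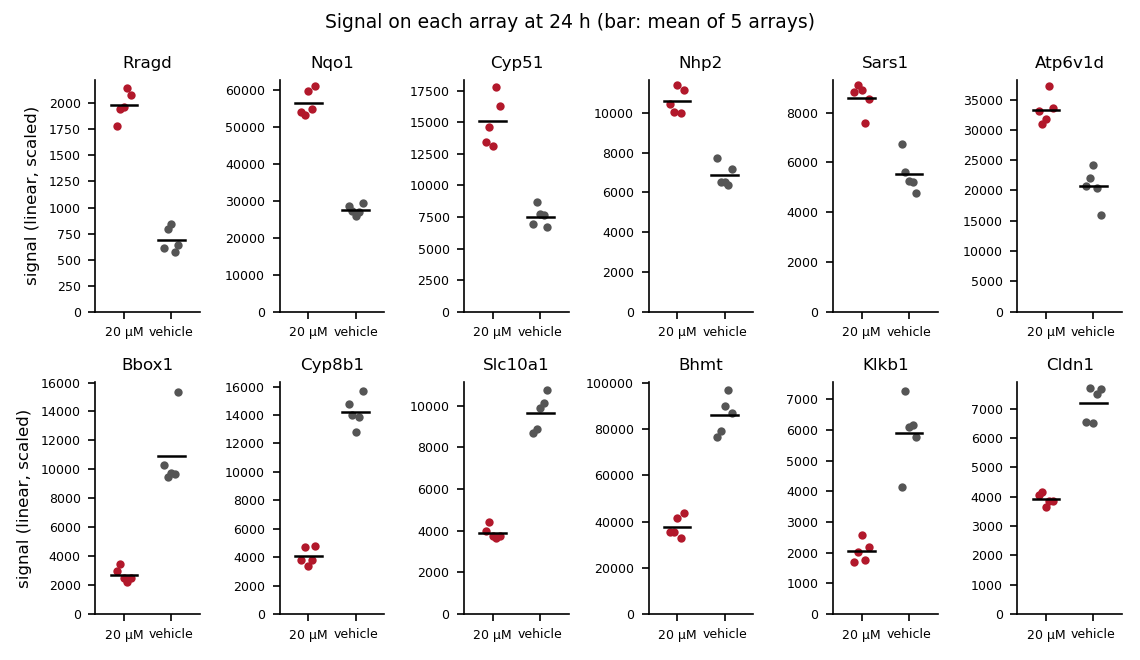
Linear scaled signals on each array at 24 h, with 20 µM on the left and vehicle on the right of each panel, 1 point per array and a bar at the mean of 5 arrays. The upper row holds genes that rose and the lower row genes that fell. In none of the 12 panels do the groups overlap, which was a condition for those taken from the largest rises and falls.

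Genes for making proteins rose in part. Of 52 measured genes of ribosome assembly, 25 rose and 0 fell, with a median difference of 0.26 against -0.003 for all genes. Nhp2, a subunit of the H/ACA particles that guide pseudouridylation of ribosomal RNA, had signals of 10460.3, 10035, 11410.3, 9999 and 11147 at 20 µM, against 7753, 6551, 6533, 6368 and 7158 in vehicle. The lowest treated well lay above the highest vehicle well (0.63 ± 0.06, adjusted p = 1.88e-08). Its partner Gar1 rose by 0.39 ± 0.08 and the catalytic subunit gene Dkc1 by 0.23 ± 0.06, and Nop10, the fourth subunit, had a difference of 0.15 ± 0.06 with an adjusted p of 0.0946. The nucleolar helicase gene Ddx21 rose by 0.56 ± 0.07, nucleolin (Ncl) by 0.43 ± 0.04, and the large-subunit assembly factors Mrto4 by 0.55 ± 0.06 and Ebna1bp2 by 0.49 ± 0.05. Utp4, a small-subunit processome protein, had 5018, 4626, 5636, 5825 and 5893 at 20 µM, against 4021, 4291, 3697, 3709 and 4373 in vehicle (0.42 ± 0.08). Of 7 measured genes of RNA polymerase I and its factors 2 rose.

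Of 39 measured translation factors 22 rose and 0 fell, with a median of 0.23. The subgroups of lists given from here on were made after their values were seen and are descriptions only. All 3 subunits of eIF2, which brings the initiator tRNA, rose, with Eif2s1 at 11453, 11042, 11852, 12029 and 12001 at 20 µM, against 8861, 9579.7, 9141, 9561 and 8485 in vehicle (0.36 ± 0.04). Of 11 subunits of eIF3, the scaffold of initiation, 6 rose, Eif3k by 0.40 ± 0.08. Eif5a rose by 0.27 ± 0.06 and Eif4ebp1, a repressor of cap-dependent initiation, by 0.35 ± 0.05, while Eef2, the translocation factor, had a difference of -0.00099 ± 0.07. All 8 measured subunits of the cytosolic chaperonin, which folds actin and tubulin, rose, with differences of 0.23 to 0.50. Cct4 had signals of 19419, 19358, 22028, 21156 and 21906 at 20 µM, against 14238, 13689.5, 16024, 15409 and 14308 in vehicle (0.50 ± 0.06), Cct2 differed by 0.36 ± 0.05, Cct5 by 0.35 ± 0.06 and Tcp1 by 0.23 ± 0.05. Across all 40 measured heat shock and folding genes 16 rose and 2 fell, and the inducible Hspa1a was one of the falls (-0.81 ± 0.12). Of 46 proteasome genes 18 rose and 0 fell, with a median of 0.14. Psmg2, an assembly chaperone, had 5819, 5769.5, 6375, 6415 and 6180.4 at 20 µM, against 4664, 4749, 4491, 4576 and 4528 in vehicle (0.41 ± 0.04), the lid deubiquitinase gene Psmd14 rose by 0.38 ± 0.06, and Psmb10, a subunit of the immunoproteasome, by 0.54 ± 0.12.

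Cytosolic tRNA synthetases, which charge tRNAs with amino acids, rose in 15 of 23 measured genes and fell in 0, with a median of 0.27. Sars1, the seryl enzyme, had signals of 8829, 9098, 8922, 7599.9 and 8558 at 20 µM, against 6750.4, 5612, 5241, 5202 and 4778 in vehicle (0.65 ± 0.11, adjusted p = 6.93e-05). Yars1 rose by 0.49 ± 0.07, Mars1 by 0.29 ± 0.06 and Aars1 by 0.27 ± 0.06. Of 13 mitochondrial synthetases 2 rose. Several of these enzymes belong with the targets of ATF4, the transcription factor of amino acid shortage and stress, which binds composite sites. Of 30 measured ATF4 and CHOP genes 11 rose and 2 fell. Asns, asparagine synthetase, had 10804, 10456, 10259, 10458 and 10480.3 at 20 µM, against 6715, 5252, 5718, 5553 and 7408 in vehicle (0.79 ± 0.07, adjusted p = 2.68e-09). The treated wells were closely grouped, and the dimmest lay well above the brightest vehicle well. The pseudokinase gene Trib3 rose by 0.95 ± 0.11, Ddit3, which codes for CHOP, by 0.57 ± 0.12, and Atf4 by 0.30 ± 0.04. Of 26 genes of serine synthesis and amino acid transport 9 rose and 2 fell (10 and 0 with centred arrays). The rises included Phgdh, the entry enzyme of serine synthesis (0.63 ± 0.11), and Slc3a2, the heavy chain of several amino acid exchangers (0.60 ± 0.05).

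Promoters of members that rose are shown for the synthetases and the ribosome assembly genes. A motif was searched as letters on both strands of the window from 250 bases before to 50 after each RefSeq gene start (GRCr8). TTGCATCA, a composite site for ATF4 and C/EBP proteins, was in 266 of 33469 promoters (0.795%) and in 78 of the 11733 tested genes with a promoter (0.665%). It was in 7 of 21 cytosolic synthetase promoters (33.3%), 4 of which belong to the 14 that rose. It was in 6 of 27 promoters of the ATF4 and CHOP list (22.2%), 1 of which belongs to the 8 that rose, in 1.14% of the promoters of all genes that rose and 1.34% of those that fell. In the lines below capitals mark the motif, on the strand of the gene.
Aars1, chr19:55908232-55908531 (plus strand): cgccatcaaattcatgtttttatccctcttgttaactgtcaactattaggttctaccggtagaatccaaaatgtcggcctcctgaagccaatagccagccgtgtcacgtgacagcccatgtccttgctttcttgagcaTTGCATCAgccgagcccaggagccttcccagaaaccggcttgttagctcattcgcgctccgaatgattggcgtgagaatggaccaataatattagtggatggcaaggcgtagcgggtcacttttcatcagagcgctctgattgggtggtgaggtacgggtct
Mars1, chr7:65023704-65024003 (minus strand): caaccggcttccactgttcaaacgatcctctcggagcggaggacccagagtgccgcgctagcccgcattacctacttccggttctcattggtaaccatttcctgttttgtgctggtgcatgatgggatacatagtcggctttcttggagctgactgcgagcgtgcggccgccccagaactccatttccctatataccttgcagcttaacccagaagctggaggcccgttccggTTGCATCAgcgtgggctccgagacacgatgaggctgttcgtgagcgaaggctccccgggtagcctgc
Yars1, chr5:146819913-146820212 (plus strand): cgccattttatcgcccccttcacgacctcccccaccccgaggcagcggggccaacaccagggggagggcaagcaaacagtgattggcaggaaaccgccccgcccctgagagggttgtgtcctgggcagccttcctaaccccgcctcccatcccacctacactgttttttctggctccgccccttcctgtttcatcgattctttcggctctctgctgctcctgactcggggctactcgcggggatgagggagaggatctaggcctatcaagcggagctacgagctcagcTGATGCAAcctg
The match lies 112 bases before the start in Aars1, 17 before it in Mars1 and 38 after it in Yars1, where it reads on the opposite strand. The letters CACGTG, bound by MYC and by the MiT/TFE factors, were in 2148 of 33469 promoters (6.42%) and in 9.35% of those of tested genes. They were in 15 of 47 promoters of ribosome assembly genes (31.9%), 6 of which belong to the 24 that rose, and in 4 of 42 proteasome promoters (9.52%), 0 of which belong to the 16 that rose. They were in 9 of 35 promoters of translation factors (25.7%), 2 of which belong to the 19 that rose, in 12.9% of the promoters of all genes that rose and in 7.92% of those that fell.
Ebna1bp2, chr5:137433284-137433583 (plus strand): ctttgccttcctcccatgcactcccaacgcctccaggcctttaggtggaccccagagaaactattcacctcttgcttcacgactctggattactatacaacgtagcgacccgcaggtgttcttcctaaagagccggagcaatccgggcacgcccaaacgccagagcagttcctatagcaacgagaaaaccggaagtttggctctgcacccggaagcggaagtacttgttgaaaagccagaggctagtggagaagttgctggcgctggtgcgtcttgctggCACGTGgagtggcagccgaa
Utp4, chr19:51701991-51702290 (plus strand): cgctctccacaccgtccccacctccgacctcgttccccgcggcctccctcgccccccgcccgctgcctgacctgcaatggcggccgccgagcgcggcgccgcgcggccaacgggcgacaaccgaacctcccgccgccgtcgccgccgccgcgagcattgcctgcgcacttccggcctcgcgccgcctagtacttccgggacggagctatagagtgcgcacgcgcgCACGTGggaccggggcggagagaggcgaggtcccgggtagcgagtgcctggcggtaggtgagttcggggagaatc
The match lies 30 bases after the start in Ebna1bp2 and 25 before it in Utp4. Most members that rose carry neither run of letters in these windows, and a match describes the sequence and no binding.

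**Figure D3:**
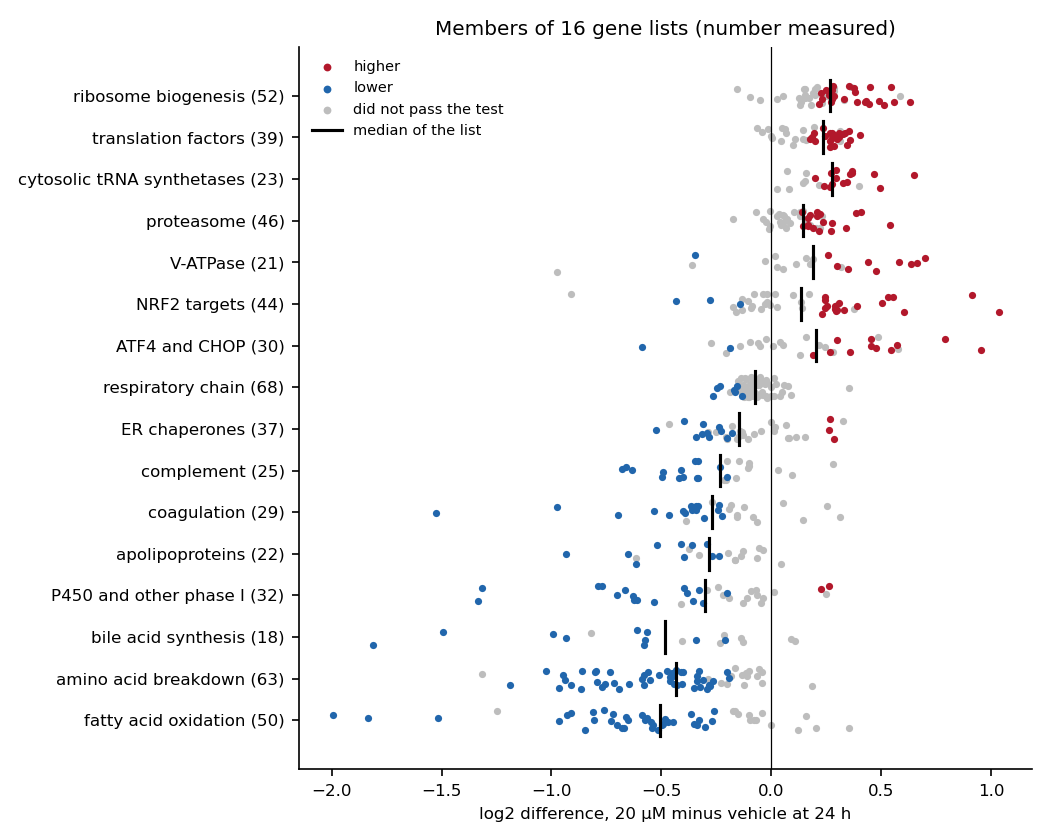
Members of 16 gene lists, 1 point per measured gene, with the log2 difference (20 µM minus vehicle at 24 h) on the horizontal axis and the number measured beside each list. Red points rose, blue points fell, grey points did not pass the test, and black bars mark medians, which run from 0.27 for cytosolic tRNA synthetases to -0.51 for fatty acid oxidation.

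Genes of the oxidant and p53 responses rose in part. Of 44 measured targets of NRF2, the transcription factor of the oxidant response, 18 rose and 3 fell (18 and 1 with centred arrays). Nqo1, a quinone reductase, had signals of 54037, 53130.5, 59680.4, 54790.3 and 60941 at 20 µM, against 28575, 27292, 25849, 26876 and 29363 in vehicle (1.03 ± 0.05, adjusted p = 3.29e-14). Its groups were tight and far apart. Akr1b8 rose by 0.91 ± 0.16, Nfe2l2, which codes for NRF2, by 0.50 ± 0.06, and Srxn1, sulfiredoxin, by 0.39 ± 0.06. Hmox1, haem oxygenase, had 39776, 37437, 42542, 43287 and 47575 at 20 µM, against 36112, 37454, 38778, 41547 and 33006 in vehicle, with overlapping groups and an adjusted p of 0.242. Of 26 measured p53 targets 12 rose and 2 fell. Sfn, stratifin, rose by 0.99 ± 0.11, the nuclease gene Aen by 0.70 ± 0.08, Ccng1, cyclin G, by 0.56 ± 0.06 and Mdm2, the p53 ubiquitin ligase, by 0.44 ± 0.06. Cdkn1a, the cell cycle inhibitor p21, had 6884, 8219, 7155, 5194 and 5992 at 20 µM, against 8398, 7257, 6945, 6972 and 6045 in vehicle and an adjusted p of 0.617, and Dcxr, a carbonyl reductase on the list, fell (-1.11 ± 0.09). Of 9 measured targets of the aryl hydrocarbon receptor 5 rose and 0 fell. Cyp1a1, its best known target, had 64610.3, 59128, 78495, 76818 and 87265 at 20 µM, against 34891, 37874, 38346, 41229 and 34554 in vehicle (0.96 ± 0.09), and Cyp1a2 rose by 0.54 ± 0.07.

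Chaperones of the endoplasmic reticulum fell more often than they rose: of 37 measured, 3 rose and 11 fell (5 fell with the arrays centred on their medians). Hsp90b1 had signals of 23251, 23346, 26030.1, 23835 and 26757 at 20 µM, against 28943, 29544, 32781, 32894 and 31869 in vehicle (-0.34 ± 0.05), the disposal factor gene Edem2 fell (-0.53 ± 0.05) and Sec61a1, of the translocon (-0.40 ± 0.09). Hspa5, the main chaperone of that compartment, had a difference of -0.11 ± 0.04 with an adjusted p of 0.125, and Xbp1 one of -0.16 ± 0.06 with an adjusted p of 0.0693.

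Genes of cholesterol synthesis rose in part. Of 8 measured mevalonate genes 4 rose (3 under quantile normalization), and of 12 late sterol genes 6 rose and 1 fell. Cyp51, lanosterol demethylase, had signals of 13457, 14671, 13125, 17802 and 16325 at 20 µM, against 6916, 8706, 7726, 7636 and 6696 in vehicle (0.997 ± 0.09, adjusted p = 1.46e-09). The dimmest treated well lay far above the brightest vehicle well. Idi1 rose by 0.57 ± 0.08, Acat2 by 0.74 ± 0.07, Sc5d by 0.56 ± 0.06 and Sqle, squalene epoxidase, by 0.42 ± 0.08. Insig1, the sterol-regulated retention protein of SREBP, rose by 0.27 ± 0.05, while Srebf2, which codes for the sterol-regulated SREBP, had a difference of 0.07 ± 0.08 (adjusted p = 0.725). Among 25 genes of fatty acid synthesis 6 rose and 5 fell (7 and 3 with centred arrays). The desaturase genes Fads1 (0.98 ± 0.14) and Scd2 (0.73 ± 0.11) and the elongase gene Elovl6 (0.69 ± 0.16) rose. Acaca, acetyl-CoA carboxylase, had 4592, 4824, 4995, 4586 and 4913 at 20 µM, against 9791, 8487, 7827, 8651 and 10745 in vehicle (-0.92 ± 0.09), and Fasn had a difference of -0.33 ± 0.15 with an adjusted p of 0.182. Of 33 phospholipid genes 4 rose and 2 fell: Pcyt1a, the rate-limiting enzyme of the choline route to phosphatidylcholine, rose by 0.30 ± 0.07, and Pemt, which methylates phosphatidylethanolamine, fell (-0.84 ± 0.11). Abcg1, a sterol exporter, fell (-0.73 ± 0.10), but the median of its probe sets had a difference of 0.21.

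Part of the lysosomal machinery rose. Of 21 measured V-ATPase genes, which code for the pump that acidifies lysosomes, 9 rose and 1 fell. Atp6v1d had signals of 33112, 30955, 31768, 37172 and 33613 at 20 µM, against 20728, 22034, 24238, 20444 and 15995 in vehicle (0.70 ± 0.08, adjusted p = 1.52e-07), and every treated well was brighter than every vehicle well. Of 11 subunits of its cytosolic V1 sector 6 rose, and of 8 of its membrane V0 sector 1 rose, Atp6v0b (0.66 ± 0.08), and 1 fell. Of 29 genes of Rag GTPases, folliculin and the MiT/TFE factors 8 rose and 1 fell, the stress sensor gene Sesn1 (-0.58 ± 0.07). Of 48 other lysosomal genes 11 rose and 4 fell, and 13 rose and 0 fell with the arrays centred on their medians. Of 20 lysosomal lipid genes 5 rose, 2 fell and 13 did not pass, with a median of -0.005. The rises included Scarb2, a membrane receptor (0.51 ± 0.06), Neu1, a sialidase (0.52 ± 0.13), and Npc2, the soluble cholesterol carrier (0.31 ± 0.06). The falls were of the lipase gene Lipa (-0.31 ± 0.05) and the sphingomyelinase gene Smpd1 (-0.33 ± 0.07). Lamp1, an abundant membrane glycoprotein, had 20413, 21819, 20442, 20777 and 20714 at 20 µM, against 19979, 20264, 20718, 21371 and 19411 in vehicle, and its groups overlapped (0.03 ± 0.05). Of 39 autophagy genes 5 rose, Tmem41b by 0.37 ± 0.07, and 2 fell, Ulk2 (-0.52 ± 0.13). Their share of called genes, 17.9%, lay near the 16.9% of all genes.

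Amino acid breakdown had the highest share of called genes among the lists. Of 63 measured genes 47 fell and 0 rose (74.6%), with a median of -0.43. All 3 measured genes of histidine breakdown fell: Uroc1, urocanate hydratase (-1.02 ± 0.09), Ftcd, formiminotransferase (-0.95 ± 0.08), and Hal, histidine ammonia lyase (-0.56 ± 0.12). Ftcd had signals of 17629, 16005, 17979, 15548 and 16109 at 20 µM, against 30125, 29880.4, 29278, 33488 and 38147 in vehicle, and the groups lay far apart. Of 6 genes for phenylalanine and tyrosine 4 fell, among them Hgd, homogentisate dioxygenase (-0.91 ± 0.09), and Fah, fumarylacetoacetase (-0.80 ± 0.07), whereas Tat, tyrosine aminotransferase, had 19512, 17526, 18494, 16728 and 21782 at 20 µM, against 18511, 19522, 20370.3, 20531 and 24308 in vehicle with overlapping groups (adjusted p = 0.316). All 3 lysine genes fell, Aass (-0.94 ± 0.07) and Gcdh (-0.86 ± 0.08). Of 15 genes for branched-chain amino acids and propionate 11 fell, Bckdha of the branched-chain dehydrogenase (-0.74 ± 0.13). All 5 genes of glycine cleavage and glyoxylate fell, Gldc (-0.43 ± 0.10). Of 7 tryptophan genes 3 fell, Kynu, kynureninase (-0.80 ± 0.08) and Tdo2, the entry dioxygenase (-0.33 ± 0.06). All 3 genes of uracil and thymine breakdown fell as well. Bhmt, which remethylates homocysteine with betaine, had 35484, 35523, 41408, 32695 and 43789 at 20 µM, against 76524, 79448, 89902, 97180.3 and 86984 in vehicle (-1.19 ± 0.08, adjusted p = 5.17e-12). The brightest treated well was far from the dimmest vehicle well. Cbs, which takes homocysteine to cystathionine, had a difference of 0.19 ± 0.13 with an adjusted p of 0.451. Gpt, alanine aminotransferase, fell (-0.79 ± 0.08).

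Fatty acid oxidation fell in 36 of 50 measured genes and rose in 0, with a median of -0.51. All 7 peroxisomal genes fell, Hacl1, which removes 1 carbon from branched fatty acids (-0.91 ± 0.06), and Ehhadh, the bifunctional enzyme (-0.70 ± 0.18). Hacl1 had signals of 3065, 2966, 3115, 3045 and 3185 at 20 µM, against 5481, 5365, 5162, 6454 and 6620.0 in vehicle, with closely grouped wells on both sides. All 4 Acsm synthetases fell, Acsm5 (-0.93 ± 0.12). Of 14 mitochondrial beta-oxidation genes 11 fell, Acadm, the medium-chain dehydrogenase (-0.55 ± 0.09). Hadhb, of the trifunctional protein, had 23672, 22744, 23339.5, 23954 and 24698 at 20 µM, against 22799.7, 22549, 24338, 24753 and 24189 in vehicle (adjusted p = 0.987), with the groups on top of each other. Carnitine synthesis lost Aldh9a1 (-0.72 ± 0.08) beside Bbox1, while of 5 carnitine shuttle genes 1 fell and Cpt1a, its gate, had a difference of -0.17 ± 0.14 (adjusted p = 0.553). Fabp1, the liver fatty acid binding protein, fell (-0.81 ± 0.10). Of 7 genes of ketone body metabolism 2 fell, Bdh1 (-1.11 ± 0.11) and Acat1 (-0.41 ± 0.06), and 2 rose, Bdh2 by 0.44 ± 0.10 and Oxct1 by 0.48 ± 0.16, with a median of 0.06. Of 68 respiratory chain genes 7 fell and 0 rose, with a median of -0.07 (1 fell with the arrays centred on their medians, and 13 fell and 1 rose under quantile normalization), and the largest called change was of Ndufv3 (-0.27 ± 0.05), followed by Ndufv1 (-0.25 ± 0.05). Of 25 citric acid cycle and pyruvate genes 7 fell and 1 rose (4 fell with the arrays centred), among the falls Idh2 (-0.56 ± 0.04) and Pdk2, a pyruvate dehydrogenase kinase (-0.68 ± 0.08).

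Genes of bile acid synthesis and uptake fell in part. Of 18 measured synthesis genes 10 fell and 0 rose, with a median of -0.49. Cyp8b1, the sterol hydroxylase needed for cholic acid, had signals of 3825, 4693, 3383, 3774 and 4756 at 20 µM, against 14778, 14008, 12840.3, 13875 and 15697 in vehicle (-1.81 ± 0.09). Cyp7a1, the rate-limiting enzyme, had 657, 688, 609.9, 468 and 646 at 20 µM, against 1699, 1326, 1341, 1440.5 and 3409.8 in vehicle (-1.50 ± 0.25, adjusted p = 6.79e-05). Its groups did not overlap, and vehicle replicate 5 was far above the other vehicle wells. Akr1d1, which reduces the steroid ring, fell (-0.995 ± 0.18), and Slc27a5, the bile acyl-CoA synthetase (-0.93 ± 0.16). Of 14 uptake transporters 10 fell and 0 rose (6 fell with the arrays centred on their medians). Slc10a1, the sodium-dependent importer of bile acids, had 3969, 4401, 3753, 3634 and 3742 at 20 µM, against 8695, 8863, 9893, 10156 and 10773 in vehicle (-1.31 ± 0.12, adjusted p = 1.46e-09), and Slco1a4 fell (-0.90 ± 0.14). Of 15 export pumps 2 rose and 2 fell. Abcc2, the pump of conjugates into bile, had 37657, 35091, 40776, 40293 and 43527 at 20 µM, against 28397, 25173, 28490.0, 25158 and 26987 in vehicle (0.55 ± 0.05), and Abcb1a, a P-glycoprotein, rose by 0.79 ± 0.15. Abcb11, the canalicular bile salt pump, had 14296, 13919, 14622, 13126 and 14232 at 20 µM, against 17518, 17026, 17438, 16923 and 19478 in vehicle (-0.33 ± 0.04), and Abcb4, the phospholipid flippase of bile, fell (-0.46 ± 0.09). Nr1h4, which codes for the bile acid receptor FXR, fell (-0.53 ± 0.07), while its target Nr0b2 (SHP) had overlapping groups and a difference of -0.18 ± 0.57.

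Drug-metabolising enzymes fell in many families and rose in few members. Of 32 constitutive P450 and related enzymes 16 fell and 2 rose, with a median of -0.30. Cyp2e1, the ethanol-inducible form, fell (-0.70 ± 0.09) and Cyp2c11, the male-specific form of rat liver (-0.38 ± 0.09). Of 18 genes of the receptors CAR and PXR and their targets 5 rose and 5 fell. The receptor genes themselves fell, Nr1i3 (CAR) (-0.73 ± 0.08) and Nr1i2 (PXR) (-0.36 ± 0.08). Cyp3a23-3a1 had 79927, 77306, 90509, 93178 and 96338 at 20 µM, against 84692, 87206, 87950.0, 104752 and 84858 in vehicle with overlapping groups (-0.04 ± 0.08), Cyp3a2 had a difference of -0.07 ± 0.23, and Cyp3a18 fell (-0.79 ± 0.07); members of this family resemble each other in sequence, so their probe sets may share signal. Of 21 glutathione transferases 7 fell and 2 rose, Gstt3 falling (-1.05 ± 0.12). Of 13 carboxylesterases and deacetylases 7 fell and 1 rose, Aadac (-1.29 ± 0.14) and Ces1d (-1.16 ± 0.16). Of 29 steroid reductases and dehydrogenases 14 fell and 3 rose, with Dhrs3, a retinal reductase, at -0.998 ± 0.08. Of 20 sulfotransferases 3 fell and 1 rose. Sult1b1 had signals of 33180.4, 33658, 32326, 32372 and 34228 at 20 µM, against 54811, 53291, 52269.9, 57505 and 58989.8 in vehicle (-0.74 ± 0.06), and Sult1a1 fell (-0.34 ± 0.07). Of 9 glucuronosyltransferases 2 rose and 2 fell, and Ugt2b1, which rose by 0.55 ± 0.13, had groups that overlapped through vehicle replicate 5. Of 20 vitamin A genes 5 fell and 0 rose, Rdh7 (-0.73 ± 0.08). Of 16 haem genes 1 rose, Alas1, the entry enzyme of haem synthesis, by 0.36 ± 0.09, and 3 fell, with a median of -0.09. Those that fell were Cpox (-0.23 ± 0.04), Fech, which inserts the iron (-0.34 ± 0.08), and Fabp1, given with the fatty acid genes. Fabp1 was on this list but is a fatty acid binding protein and not an enzyme of haem synthesis.

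Glucose, urea and methyl metabolism fell in part. Of 20 genes of glucose production and glycogen 8 fell and 2 rose. Pc, pyruvate carboxylase, had signals of 2359.6, 2183, 2111, 2236 and 2355 at 20 µM, against 4686, 4470.0, 4325, 5057 and 5199 in vehicle (-1.08 ± 0.07, adjusted p = 1.07e-12). The treated wells spanned a narrow range well below the vehicle wells. Fbp1, fructose bisphosphatase, fell (-0.87 ± 0.10) and Gys2, liver glycogen synthase (-0.94 ± 0.06). Pck1, the cytosolic carboxykinase, had 1451, 1125, 1227, 1809 and 1125 at 20 µM, against 2396, 1815, 1237, 2245 and 1366 in vehicle (adjusted p = 0.242), with overlap, and its mitochondrial counterpart Pck2 rose by 0.96 ± 0.20. Of 30 glycolysis and glucose import genes 5 rose and 5 fell, Pklr, liver pyruvate kinase, falling (-0.78 ± 0.13). Of 12 urea cycle and ammonia genes 8 fell and 0 rose, among them Car5a (-0.94 ± 0.12) and Arg1, arginase (-0.39 ± 0.08). Otc, ornithine transcarbamylase, had a difference of -0.87 ± 0.26 (adjusted p = 0.0229), which was no longer called without vehicle replicate 4 (adjusted p = 0.0545), 20 µM replicate 4 (0.0811) or vehicle replicate 5 (0.0586). The brightest probe sets of Cps1 and Ass1 did not pass, with differences of -0.20 ± 0.09 and -0.06 ± 0.06. A second probe set of Cps1 fell (-0.59 ± 0.08, adjusted p = 2.63e-06), so the probe sets of this gene disagree. Of 22 genes of folate, choline and methyl transfer 7 fell and 4 rose, Sardh, sarcosine dehydrogenase, falling (-0.93 ± 0.06).

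Transcripts of plasma proteins fell in part. Of 29 coagulation genes 16 fell and 0 rose, with a median of -0.27 (13 fell with the arrays centred on their medians). Hrg, histidine-rich glycoprotein, had signals of 14353, 14049.9, 15089, 14287 and 15609 at 20 µM, against 26993, 25418, 26638, 30595 and 35603 in vehicle (-0.97 ± 0.08, adjusted p = 5.82e-10). Proc, protein C, fell (-0.39 ± 0.04), F9, factor IX (-0.36 ± 0.06) and Serpinc1, antithrombin (-0.31 ± 0.05), while 4 of 5 vitamin K-dependent proteins fell and Pros1, protein S, had a difference of 0.14 ± 0.06. None of the 3 fibrinogen chains passed, Fga having 65971, 65059.8, 75406, 72523 and 82378 at 20 µM, against 76143, 79609.9, 85266, 91467 and 70616 in vehicle. Of 25 complement genes 14 fell and 0 rose (11 fell with the arrays centred). In the lectin pathway 4 of 5 fell, Mbl1 (-0.63 ± 0.07) and Mbl2 (-0.49 ± 0.09), and in the terminal pathway 5 of 6, C8a (-0.42 ± 0.07), against 0 of 3 genes of the C1 complex. The regulator C4b-binding protein fell in both chains, C4bpa (-0.66 ± 0.07) and C4bpb (-0.68 ± 0.12). Of 22 apolipoprotein and lipoprotein assembly genes 10 fell and 0 rose. Apob had 41778, 43078, 39181, 42959 and 36971 at 20 µM, against 57022, 57783, 60609, 55898 and 61122 in vehicle (-0.52 ± 0.08), Mttp, which loads it with lipid, fell (-0.62 ± 0.07), Lcat (-0.65 ± 0.05) and Apon (-0.93 ± 0.08), whereas Apoa1 had a difference of -0.04 ± 0.10. Of 24 serpins 9 fell and 1 rose (5 fell with the arrays centred), Serpina11 falling (-0.53 ± 0.06) and Serpinb6a, an intracellular member, rising by 0.56 ± 0.08. Of 27 acute phase genes 4 fell and 1 rose: Azgp1 fell (-0.72 ± 0.07) and Lbp, which binds bacterial lipopolysaccharide, rose by 0.68 ± 0.07, with signals of 15479, 14985, 15869, 15607 and 16933 at 20 µM, against 10228, 9738, 9826, 9561 and 9682 in vehicle. Crp had a difference of -0.27 ± 0.14 and an adjusted p of 0.286. Of 23 lipid droplet genes 6 fell and 2 rose (3 and 2 with the arrays centred), Mgll, monoglyceride lipase, falling (-0.65 ± 0.10).

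Regulators and structural genes changed in named members. Of 47 liver transcription factor genes 13 fell and 1 rose (7 fell with the arrays centred). Cebpa had signals of 2888, 2735, 3024, 2780.4 and 2828 at 20 µM, against 5398, 4466, 4310.0, 3873 and 6693 in vehicle (-0.77 ± 0.11, adjusted p = 7.88e-06), and Foxa1 fell (-0.85 ± 0.17). Hnf4a, the master regulator of hepatocyte genes, had 10855, 11218, 11688, 10568 and 11323 at 20 µM, against 12498, 11070.3, 10462, 11425 and 11903 in vehicle, with overlapping groups (-0.04 ± 0.05). Of 38 growth hormone, IGF and insulin genes 5 fell and 1 rose. Ghr, the growth hormone receptor, fell (-0.54 ± 0.06), Egfr (-0.56 ± 0.07), and Igf1 had 28810.1, 29109.5, 30422, 30957 and 30965 at 20 µM, against 40608, 40070.1, 44223, 42370.1 and 40211 in vehicle (-0.47 ± 0.05), while the adaptor gene Grb10 rose by 0.98 ± 0.13. Of 25 junction genes 8 fell and 3 rose (4 fell with the arrays centred). Cldn1, a tight junction claudin, had 4056, 4167, 3641, 3850.1 and 3835 at 20 µM, against 6529.6, 7692, 6510.3, 7498 and 7663 in vehicle (-0.87 ± 0.07), the cadherin genes Cdh1 (-0.63 ± 0.05) and Cdh2 (-0.49 ± 0.04) fell, and so did Gjb1, the main gap junction protein of hepatocytes (-0.49 ± 0.07). Another probe set of Cdh2, of similar brightness, did not pass (-0.12 ± 0.06, adjusted p = 0.315). The keratin genes Krt8 (-0.04 ± 0.08) and Krt18 (-0.04 ± 0.08) did not pass, while the dim Krt19 fell, as given with the cholangiocyte markers. Of 28 annexins and galectins 7 rose and 3 fell. Anxa5, which binds exposed phosphatidylserine, had 13483, 13016, 13636, 15143 and 13708 at 20 µM, against 7116, 8257, 8609, 6193 and 5558 in vehicle (0.97 ± 0.11), and Anxa3 (0.71 ± 0.08) and Lgals3 (0.69 ± 0.06) rose too, as did S100a11 (0.53 ± 0.08). Of 18 tubulins 4 rose and 0 fell, Tubb5 by 0.68 ± 0.07, and of 39 actin genes 5 rose and 2 fell, Tagln2 rising by 0.82 ± 0.11 and Cnn3 by 0.60 ± 0.07.

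The remaining lists held calls in both directions. Of 49 interleukin, chemokine and NF-kappaB genes 7 rose and 3 fell, the neutrophil chemokine Cxcl1 rising by 0.70 ± 0.13 and Cxcl12 falling (-0.79 ± 0.13). Of 44 interferon-stimulated genes 3 rose and 5 fell (3 rose and 1 fell with the arrays centred on their medians), and Cmpk2, which rose by 0.78 ± 0.19, had 1 vehicle well, replicate 1, within the range of the treated wells. Of 36 immediate early genes 4 rose and 5 fell (4 and 3 with the arrays centred), Jun falling (-0.37 ± 0.06) and Atf3 differing by 0.55 ± 0.15, or by 0.40 with an adjusted p of 0.0581 without vehicle replicate 5. Of 57 genes of DNA replication and mitosis 4 rose and 1 fell, Tyms rising by 0.58 ± 0.14 and Rfc4 by 0.50 ± 0.09. Of 25 iron genes 1 rose and 2 fell (2 and 1 with the arrays centred, 2 and 2 under quantile normalization), among the falls Aco1 (-0.50 ± 0.06). Of 14 metallothionein and zinc genes 1 rose, Slc39a10 (0.69 ± 0.18), and 4 fell, Slc30a10 (-0.72 ± 0.09). Of 21 clock genes 2 rose and 3 fell, Npas2 (-0.66 ± 0.11) and Usp2 (-0.49 ± 0.11). Shares of called genes were 35.7% for metallothionein and zinc genes, 23.8% for clock genes and 20.4% for interleukin, chemokine and NF-kappaB genes. They were 18.2% for interferon-stimulated genes and 8.77% for replication and mitosis. Of all genes 16.9% were called, and of the genes that were not dim 22.7%. The clock genes lay near the second share, and the interleukin, chemokine and NF-kappaB genes below it. The immediate early genes, with 9 of 36 called (25%), lay above both shares and the iron genes, with 3 of 25 (12%), below both. Several lists given earlier also lay below the share of genes that were not dim. They were tubulin (22.2%), sulfotransferase (20%), acute phase (18.5%), phospholipid (18.2%), autophagy (17.9%) and actin genes (17.9%). The others were growth hormone, IGF and insulin genes (15.8%), mitochondrial synthetases (15.4%) and respiratory chain genes (10.3%). These shares pool rises and falls, and whether any of these lists differs from other genes was not tested. Further genes named by rule had calls that ended when 1 array was left out. For all of them but Ugt2a1 and Rsad2, leaving out any of several arrays ended the call. The omission with the highest adjusted p is given. Fgfr4, the receptor of FGF19-type hormones, had a difference of -0.66 ± 0.20 and an adjusted p of 0.117 without 20 µM replicate 4. Ugt2a1 had -0.78 ± 0.21 and 0.0566 without 20 µM replicate 1. Oxct1 had 0.48 ± 0.16 and 0.176 without vehicle replicate 2. Plin4 had -1.02 ± 0.32 and 0.161 without 20 µM replicate 4. Tars2 had 0.35 ± 0.12 and 0.190 without vehicle replicate 5, and Yars2 0.31 ± 0.09 and 0.0832 without 20 µM replicate 3. Tubb6 had 0.36 ± 0.12 and 0.171 without vehicle replicate 5. Steap4 had 0.28 ± 0.08 and 0.0712 without 20 µM replicate 2, Rsad2 0.86 ± 0.23 and 0.0529 without vehicle replicate 5, and Rgs5 -0.62 ± 0.20 and 0.172 without 20 µM replicate 3.

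Other calls depended on how the values were prepared. With the median of a gene's probe sets in place of the brightest one, Prcp, Map1b, Mgll, Tars2, Eif3k, Anxa3, Cdh1, Grb10, Mars1, Bckdha, Srxn1, Scd2, Elovl6, Apob, Anxa7 and Matr3 no longer passed, while Cps1 and Fasn did. With the arrays centred on their medians Sult1a1, Ndufv1, Fgfr4 and Rgs5 no longer passed, and under quantile normalization Nop10 and Cps1 passed and Rgs5 did not. Centring also took 1 called fall from each of the lists of late sterol, V-ATPase, autophagy, ATF4 and CHOP, glucuronosyltransferase and actin genes, and from some others. It gave 40 falls in place of 47 for amino acid breakdown and 31 in place of 36 for fatty acid oxidation. Constitutive P450 enzymes had 13 in place of 16, and steroid reductases and dehydrogenases 10 in place of 14. Bile acid synthesis and apolipoprotein genes each had 8 in place of 10. With only the 10 arrays in the fit Krt19, Niban1, Ugt2a1, Oxct1, Plin4, Tars2, Tubb6, Rgs5, Dkc1 and Ehhadh no longer passed.

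At 0.8 µM, 24 genes passed the test against the same vehicle arrays (0.169%), 10 higher (0.0703%) and 14 lower (0.0985%), and 1514 had an unadjusted p under 0.05. Without 0.8 µM replicate 1 the counts were 27 higher and 42 lower, and without vehicle replicate 4 they were 3 and 1. Both comparisons use the same 5 vehicle arrays, so values at the doses are given side by side. These genes were picked after their values at 0.8 µM were seen. Cyp1a1 had signals of 34891, 37874, 38346, 41229 and 34554 in vehicle, 55104, 59592, 57572, 72763 and 59880.2 at 0.8 µM and 64610.3, 59128, 78495, 76818 and 87265 at 20 µM. Its difference was 0.70 ± 0.09 at 0.8 µM and 0.96 ± 0.09 at 20 µM, and 20 against 0.8 µM gave 0.26 with an adjusted p of 0.105. Hmgn3, a nucleosome-binding protein, had 6598, 6672, 5828, 5976 and 6096 in vehicle, 9285, 8139.8, 8558, 8249 and 8279.9 at 0.8 µM and 11498, 9651, 11777, 10378 and 10543 at 20 µM, so the 3 groups stood in order of dose without overlap. Cyp8b1 differed by -0.51 ± 0.09 at 0.8 µM and -1.81 ± 0.09 at 20 µM, and Cyp2d3 by -0.47 ± 0.08 and -1.33 ± 0.08. Between the doses themselves, 20 against 0.8 µM, 1470 genes differed (10.3%), 826 higher (5.81%) and 644 lower (4.53%). Nqo1 differed by 0.35 ± 0.05 at 0.8 µM and 1.03 ± 0.05 at 20 µM, Synrg, a trafficking adaptor, by -0.32 ± 0.06 and -1.004 ± 0.06, Defb1, a defensin, by 0.36 ± 0.08 and 0.87 ± 0.08, and Ddx39a by 0.26 ± 0.05 and 0.67 ± 0.05. Smaller and similar values at both doses were seen for Matr3 (0.31 ± 0.06 and 0.31 ± 0.06), Sf3b6 (0.38 ± 0.08 and 0.36 ± 0.08), H2az1 (0.21 ± 0.04 and 0.22 ± 0.04), Aqp8 (-0.26 ± 0.05 and -0.27 ± 0.05), Tspo (-0.31 ± 0.06 and -0.37 ± 0.06), Kank1 (-0.39 ± 0.07 and -0.45 ± 0.07) and Aldh1l1 (-0.31 ± 0.06 and -0.44 ± 0.06), none of which differed between the doses at an adjusted p under 0.05. Il1r1 differed by 0.43 ± 0.07 at 0.8 µM and 0.67 ± 0.07 at 20 µM, Anxa7 by 0.23 ± 0.05 and 0.52 ± 0.05, Gulo by -0.30 ± 0.06 and -0.61 ± 0.06, Pcsk6 by -0.27 ± 0.06 and -0.55 ± 0.06, RT1-S3 by -0.44 ± 0.08 and -0.72 ± 0.08 and C8h11orf54 by -0.26 ± 0.05 and -0.84 ± 0.05. With the median of a gene's probe sets the 20 µM difference of Il1r1 was -0.015 and that of C8h11orf54 was 0.10. Lrrc8d (-0.44 ± 0.07 at 0.8 µM, -0.07 ± 0.07 at 20 µM), Nuak2 (-0.96 ± 0.20 and -0.39 ± 0.20) and the dim Ica1l (-1.77 ± 0.37 and -0.37 ± 0.37) did not pass at 20 µM.

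**Figure D4:**
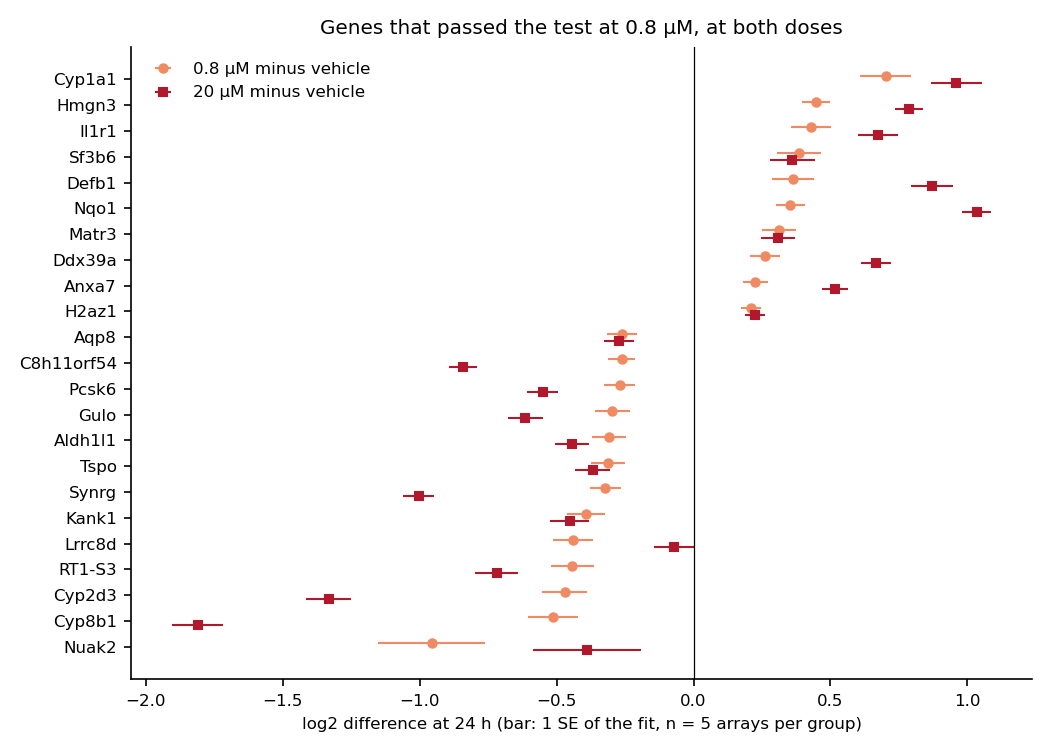
Log2 differences from vehicle at 24 h for 23 of the 24 genes that passed the test at 0.8 µM (the dim Ica1l is not drawn), with circles for 0.8 µM, squares for 20 µM and bars of 1 SE (n = 5 arrays per group). Cyp8b1, Cyp2d3 and Synrg lie much further from 0 at 20 µM, while Matr3, Sf3b6, H2az1 and Aqp8 lie at similar values at both doses.

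At 48 h, 20 µM against the vehicle of that time called 3688 genes (25.9%). Of the 2400 genes called at 24 h, 1857 were called in the same direction at 48 h and 5 in the other, and for 225 the effects themselves differed between the times (by the interaction term, 2.5% of all genes did, 1.01% with a higher and 1.49% with a lower value at 48 h). The comparison at 48 h has its own vehicle arrays. Ribosome assembly genes had a median of 0.22 at 48 h, with 25 higher and 1 lower, beside 0.26 at 24 h. Amino acid breakdown had a median of -0.52 at 48 h, with 52 of 63 lower. V-ATPase genes had a median of 0.42 at 48 h, with 14 of 21 higher. Sfn differed by 2.48 at 48 h and 0.99 at 24 h, and Eno2 by 2.69 and 1.14. Cyp2e1 differed by -2.48 at 48 h and -0.70 at 24 h, and Ces1d by -3.41 and -1.16. Cxcl1 and Elovl6 had values of opposite sign, -0.32 and -0.26 at 48 h against 0.70 and 0.69 at 24 h. Each of these 6 differences between the times passed the interaction test, which does not test the sign of a value at 48 h.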

How the data were processed

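RNA of 10 wells at 24 h was compared, 5 at 20 µM and 5 vehicle, with 20 further arrays in the fit. The deposited intensity values are linear signals per probe set, which the authors summarised with MAS5 per the submitters' processing notes (version not given in the sources used here). Medians per array ran from 379 to 448, and 3.86% of values lay below the floor of 16 applied before log2 transformation. No further normalization was applied. Of 31099 probe sets 57 controls were left out. Of the 31042 tested, 20826 had 1 gene symbol in the platform annotation, 436 several and 9780 none.

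limma 3.58.1 in R 4.3.3 fitted 1 mean per group over 30 arrays (24 residual degrees of freedom), with a trended eBayes and Benjamini-Hochberg adjustment over all probe sets. A gene was represented by its brightest probe set with a single symbol, which gave 14217 genes. The fit was tested on simulated data. Genes named by rule were the 12 largest rises and falls that were not dim and did not overlap, and up to 2 called members of each of 69 lists; 126 more were chosen after their values were seen. Members and lists were chosen with earlier results of these data known, and no set test was run. Alternatives covered the floor, a filter on dim probe sets, centring, quantile normalization, array weights, the trend, the arrays in the fit, the threshold, the summary of probe sets, a replicate block of 6 consecutive array numbers and leaving out each array. Scan dates were not used here. Tables and figures used Python 3.11.15, pandas 2.3.3 and matplotlib 3.10.9.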

Additional observations from a re-analysis of the deposited data

Results flagged for a closer look

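For 33 of 518 groups of 5 arrays (259 genes named, with 20 µM and vehicle each), 1 array lay far from the other 4 by Dixon's test at 95%, where chance flags about 1 in 20 groups. Vehicle replicate 5 held 12 of the 33, and its part in the results was not tested beyond leaving it out. Its mean correlation was 0.944 with its own group and 0.946 with the vehicle arrays of 48 h. It was the only vehicle array of 24 h for which the second value was the higher, and the values are close. In 20 µM replicate 1 the lowest of the 5 values stood apart for Gldc (11.95, the others 12.41 to 12.53). In 20 µM replicate 2 the log2 signal was far above the rest for Lamp1 (14.41, the others 14.32 to 14.34) and Srebf2 (11.76, the others 11.48 to 11.55). A log2 signal far below the rest was found in 20 µM replicate 2 for Tubb6 (13.60, the others 13.99 to 14.11) and Nop10 (14.52, the others 14.66 to 14.70). In 20 µM replicate 3 the log2 signal was far above the rest for Abcg1 (9.75, the others 9.31 to 9.44). A log2 signal far below the rest was found in 20 µM replicate 4 for Cyp4a1 (10.52, the others 10.94 to 11.05) and Il1r1 (11.90, the others 12.13 to 12.20). In 20 µM replicate 5 the log2 signal was far above the rest for Hspa5 (15.59, the others 15.47 to 15.50). In 20 µM replicate 5 the lowest of the 5 values stood apart for Npas2 (9.77, the others 10.19 to 10.22). In vehicle replicate 1 the log2 signal was far above the rest for Grb10 (10.05, the others 9.42 to 9.48). In vehicle replicate 1 the lowest of the 5 values stood apart for Niban1 (6.58, the others 8.31 to 8.67). A log2 signal far below the rest was found in vehicle replicate 2 for Oxct1 (8.42, the others 9.03 to 9.28), Cxcl12 (9.91, the others 10.26 to 10.39) and Nuak2 (9.53, the others 9.89 to 10.01). In vehicle replicate 3 the log2 signal was far above the rest for Mrto4 (11.88, the others 11.61 to 11.67) and Dkc1 (11.20, the others 10.91 to 10.95). In vehicle replicate 4 the log2 signal was far above the rest for Bdh1 (11.59, the others 11.24 to 11.33) and Cyp3a23-3a1 (16.68, the others 16.37 to 16.42). A log2 signal far below the rest was found in vehicle replicate 4 for Eif3k (12.75, the others 12.96 to 13.04) and Ddx39a (11.84, the others 12.02 to 12.08). In vehicle replicate 5 the log2 signal was far above the rest for Bbox1 (13.91, the others 13.21 to 13.33), Cyp7a1 (11.74, the others 10.37 to 10.73) and Akr1c1 (12.76, the others 11.96 to 12.12). Log2 signals of vehicle replicate 5 stood above the other arrays for Ugt2b1 (15.49, the others 14.60 to 14.80), Car5a (12.71, the others 12.24 to 12.32) and Aldh9a1 (13.84, the others 13.38 to 13.51). It was also high there for Abcb11 (14.25, the others 14.05 to 14.10) and Kank1 (12.23, the others 11.79 to 11.91). In vehicle replicate 5 the lowest of the 5 values stood apart for Fabp1 (13.20, the others 13.50 to 13.58), C4bpb (11.52, the others 12.02 to 12.15) and Atf3 (10.85, the others 11.46 to 11.67). It also lay low there for Cyp3a2 (12.29, the others 13.24 to 13.55).

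The 20 µM effects at 48 h and at 24 h differed by limma's interaction term (Benjamini-Hochberg adjusted p under 0.05) for 50 of the genes named, with each time set against its own vehicle arrays. The values below are log2 differences of the 48 h effect minus the 24 h effect. For 11 genes the value was above 0, the highest being Eno2 (1.55), Sfn (1.48), Oxct1 (0.94) and Il1r2 (0.79). The others above 0 were Ddit3 (0.73), Npc2 (0.60), Gpnmb (0.54), Cyp1a2 (0.54), Atp6v0b (0.53), Atp6v1d (0.45) and Eef2 (0.37). For 39 genes it was below 0. Values below -1.4 were those of Ces1d (-2.26), Otc (-1.95), Cyp2e1 (-1.78), Akr1c1 (-1.69), Fabp1 (-1.56), Cyp2c11 (-1.46) and Cyp4a1 (-1.42). Between -1.4 and -1.0 lay Cyp3a18 (-1.34), Hrg (-1.31), Slc10a1 (-1.18), Klkb1 (-1.14), Ehhadh (-1.08), AKR1C3l1 (-1.07), Slc27a5 (-1.05) and Cxcl1 (-1.01). Between -1.0 and -0.7 lay Elovl6 (-0.95), Slco1a4 (-0.94), Aadac (-0.94), Rdh7 (-0.85), Ccn2 (-0.83), Apon (-0.77), Gldc (-0.75) and Pemt (-0.74). Between -0.7 and -0.45 lay Kynu (-0.57), Azgp1 (-0.57), Pc (-0.53), C4bpa (-0.48), Lcat (-0.48), Nr1i3 (-0.47) and Bhmt (-0.46). The smallest were those of Il1r1 (-0.45), C8a (-0.39), Lyz2 (-0.39), Gjb1 (-0.38), F9 (-0.37), Serpina11 (-0.36), Tdo2 (-0.34), Asgr1 (-0.28) and Igf1 (-0.27). Cxcl1 had effects of -0.32 at 48 h and 0.70 at 24 h, and Elovl6 of -0.26 and 0.69, so the estimates of these 2 differ in sign. The interaction term tests the difference between the times and not whether a 48 h value lies below 0.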

How the results depend on the processing

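At 20 µM against vehicle, 11 of the 21 alternatives changed the preparation and 10 left out 1 array each. Counts stayed within 1.5 times of 1315 higher and 1085 lower genes except for 864 higher at an adjusted p under 0.01 and 695 lower with the arrays centred on their medians. Leaving out 1 array gave 1136 to 1258 higher and 952 to 1035 lower genes. At 0.8 µM the 10 higher and 14 lower genes moved most: 21 and 25 with a filter on dim probe sets, 2 and 0 with centred arrays, 3 and 2 with only the arrays compared, 3 and 0 without a trend, 3 and 0 at an adjusted p under 0.01, and 31 and 37 with the median of a gene's probe sets. Array weights gave 6 higher genes, a floor of 64 gave 22 lower and quantile normalization 23 lower. Leaving out 1 array gave 3 to 27 higher and 1 to 42 lower. For 20 against 0.8 µM, 480 were higher and 424 lower at an adjusted p under 0.01, and 363 lower with centred arrays, with ranges of 653 to 815 higher and 553 to 638 lower without 1 array. For 20 µM at 48 h these ranges were 1913 to 2028 higher and 1442 to 1492 lower. The difference between the times gave 56 higher and 129 lower genes with centred arrays, 61 and 112 without a trend, 58 and 105 at an adjusted p under 0.01, and 91 to 192 and 153 to 290 without 1 array, with 94 and 91 higher without vehicle replicates 2 and 3. The causes of these moves were not tested, beyond the stricter threshold itself.

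With the replicate block, 1395 genes were higher and 1113 lower at 20 µM, and 20 were higher at 0.8 µM. Deviations of the 20 µM and vehicle wells of 24 h with the same run number correlated by -0.034 to 0.026. These values span all probe sets that passed the filter on dim ones and show no pairing across them as a whole. Pairing in a smaller set of genes was not tested. Of 259 genes named, 205 kept sign and call under all 21 alternatives. Differences changed sign with the median of a gene's probe sets for Abcg1 (0.21), Tubb6 (-0.093), Il1r1 (-0.015) and C8h11orf54 (0.10). For 11 of 69 lists the median changed sign under a scaling, each at most 0.08 in size. Dim genes lie near background, and 5 arrays per group limit the precision of all values.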

Other observations

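Among the genes called at 20 µM against vehicle at 24 h, 15 had a second probe set called in the opposite direction: Gnb1, Snap91, Rab2a, Hnrnpdl, Sike1, Nus1, Cep15, Hsd17b7, Pdcd6ip, Dpp8, Rbx1, Pcnp, Pcbp2, Tent4a and Acsl5. They were listed after their values were seen. Which transcripts the opposed probe sets read was not tested.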
